A study of Homo sapiens with 6 samples.

Results

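The nuclear genes for the proteins of the mitochondrial ribosome were followed in cells of the human melanoma line HMCB, whose genotype is labelled Nras Q61K in every library. Cells given an siRNA against AHCYL1 (siAHCYL1, 3 libraries) were compared with cells given a control siRNA (siNC, 3 libraries), both taken 3 days after transfection. The series asks how AHCYL1, a partner of the IP3 receptors that release calcium from the endoplasmic reticulum, promotes proliferation of such cells. The members are the rows whose symbol is MRPL or MRPS followed by a number and at most one letter from A to C. This rule takes 77 of the 26902 genes in the table, 48 MRPL genes of the large subunit and 29 MRPS genes of the small subunit, and uses no measured value. The siRNA sequences are not in the labels, no second siRNA against AHCYL1 was analysed here, and all libraries are of 1 cell line.

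Mitochondria keep a small genome of their own, and their ribosomes translate the few messenger RNAs made from it, which encode core subunits of the respiratory chain and of ATP synthase. The ribosomal RNA comes from the mitochondrial genome, whereas every ribosomal protein is encoded in the nucleus, made in the cytosol and imported. The large subunit forms peptide bonds and holds the exit tunnel, which lies close to the inner membrane, and the small subunit binds and decodes the messenger. Some of these proteins have a counterpart in bacterial ribosomes, and others are found only in mitochondria. Symbols do not always give the place of the protein: MRPS30 and MRPS18A sit in the large subunit, and MRPS36, now KGD4, is a component of the alpha-ketoglutarate dehydrogenase complex.

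The values are TPM, a transcript abundance unit, which divide by transcript length and sum to the same total in each library, so they keep no sequencing depth and levels of different genes can be compared. The number of genes at 1 TPM or more ran between 13035 and 13189 over the libraries. AHCYL1, at chr1:109984765-110023742, had 13.45, 11.13 and 10.97 TPM in siAHCYL1 libraries, against 150.02, 134.05 and 131.09 TPM in siNC libraries. It was 11.7-fold lower (log2 fold change -3.44, SE 0.096, limma adjusted p = 5.64e-08), and the exact two-sided permutation p was 0.1, the smallest that 3 libraries against 3 allow. SOX10, a transcription factor of the melanocyte lineage, had 993 to 1027 TPM in siAHCYL1 libraries and 1025 to 1050 TPM in siNC libraries, whereas TYR, the pigment enzyme tyrosinase, was listed at 0 in every library. Of 6 tested markers of this lineage 4 passed in limma. DCT, a melanin enzyme, fell (0.337 ± 0.249 TPM in siAHCYL1 and 11.4 ± 0.584 TPM in siNC), and S100B rose (28.98 ± 3.11 TPM in siAHCYL1 and 10.7 ± 0.58 TPM in siNC). TYRP1 (log2 fold change 0.87) and PMEL (0.64) rose at low levels. TYRP1 had 3.76 ± 1.18 TPM in siAHCYL1 and 1.59 ± 0.484 TPM in siNC, and PMEL 1.83 ± 0.171 and 0.877 ± 0.604 TPM. Of the markers of other cell types, CDH1, KRT5, CD3E, PDGFRA and VWF were listed at 0 throughout. The leukocyte markers summed to 7.30 to 10.8 TPM in siAHCYL1 libraries and 3.19 to 3.92 TPM in siNC libraries, nearly all of it PTPRC. The fibroblast markers summed to 26.1 to 32.4 TPM in siAHCYL1 libraries and 15.3 to 17.9 TPM in siNC libraries, most of it LUM, which rose, while COL1A1 fell (0.493 ± 0.249 TPM in siAHCYL1 and 2.18 ± 0.47 TPM in siNC). The part of these markers in the results was not tested. Fewer cells of a kind and less RNA per cell cannot be told apart in such bulk RNA.

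Every one of the 77 genes was expressed above the filter of 1 TPM in at least 3 of the 6 libraries, so none is missing from the tests. After the AHCYL1 siRNA 27 fell (35.1%), 8 rose (10.4%) and 42 did not pass, at an adjusted p under 0.05 in limma over all 13266 genes tested. Over all genes tested 51.6% passed, 21.2% lower and 30.4% higher. The median log2 fold change of the members was -0.17, beside 0.06 for all genes tested, and 56 of the 77 lay below 0. The siAHCYL1 libraries were all below the siNC libraries for 31 members and all above for 9, and overlapped them for the other 37; over all genes tested these shares were 24.5% lower and 34.7% higher. Among the 9188 genes at least as abundant as the lowest member, 54.3% passed, 21.5% lower and 32.9% higher. The sizes were small: the 35 changes ran between log2 fold changes of -0.66 and 0.83, the widest a 1.79-fold rise and a 1.58-fold fall. The split depends on how libraries are scaled, with 7 rises and 34 falls under median-of-ratios scaling and 6 rises and 41 falls under quantile normalization. Over all genes tested quantile normalization gave 3471 rises and 3743 falls and median-of-ratios scaling 3613 rises and 3583 falls, in place of 4030 and 2814, a shift in the same direction. The labels call the replicates biological but name no separate cultures, so the p-values speak only of how far these samples spread, and that spread may be technical.

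**Figure D1:**
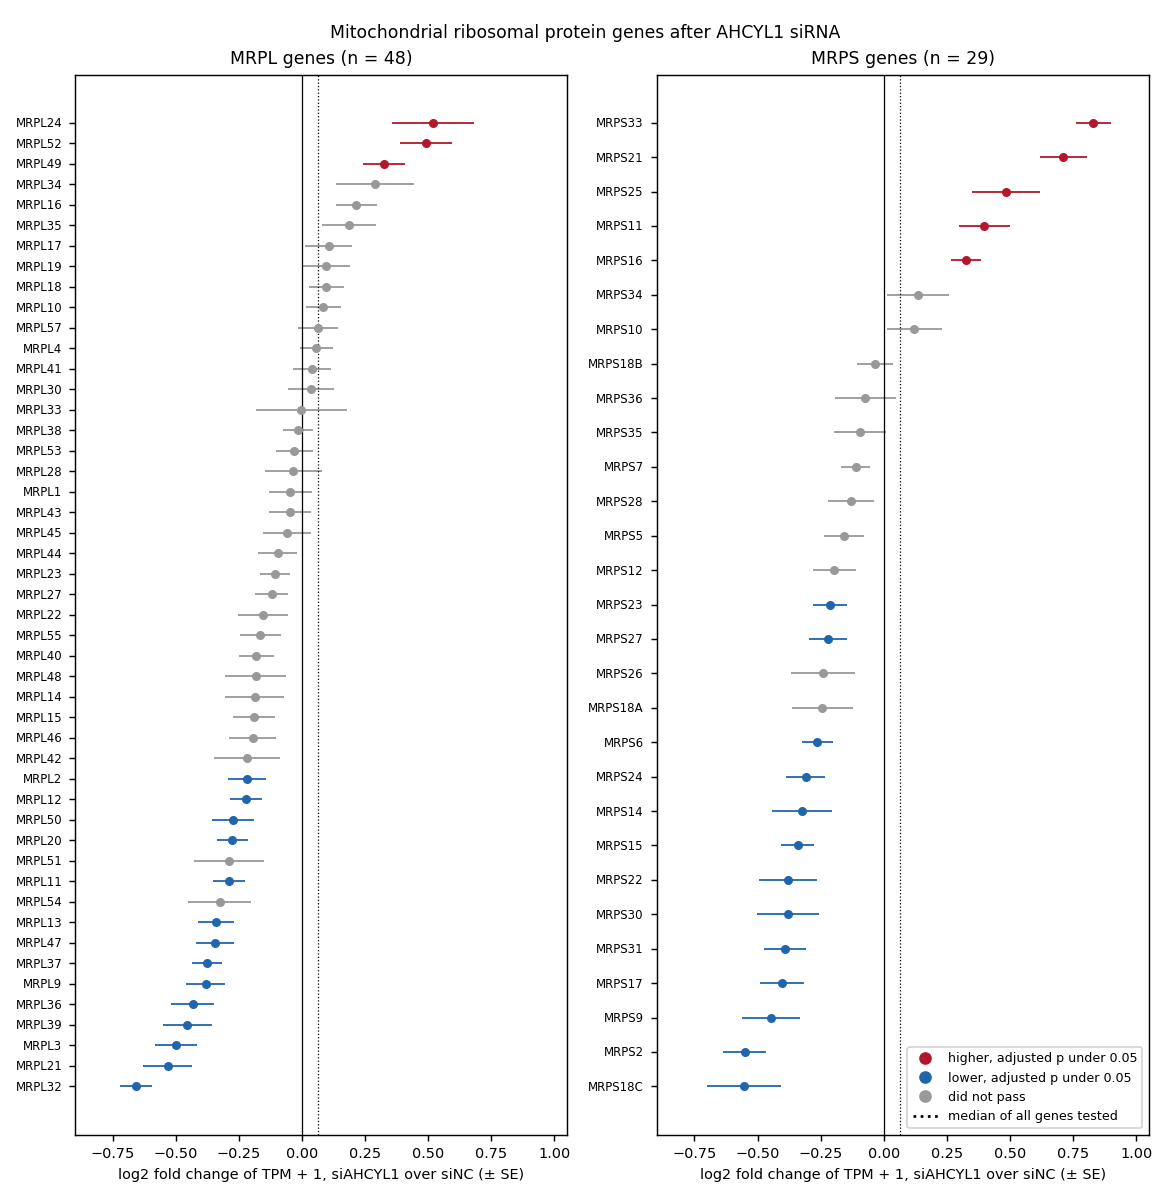
Log2 fold change of TPM + 1, siAHCYL1 over siNC, with its standard error, for each MRPL gene (left, n = 48) and MRPS gene (right, n = 29), largest rise at the top; the dotted line is the median of all genes tested. In both subunits most points lie left of 0, from -0.66 for MRPL32 upward, while MRPS33 and MRPS21 stand farthest to the right at 0.83 and 0.71.

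In the large subunit 14 of 48 genes fell (29.2%), 3 rose (6.25%) and 31 did not pass; their median log2 fold change was -0.14. In the small subunit 13 of 29 fell (44.8%), 5 rose (17.2%) and 11 did not pass, with a median of -0.21. Whether these shares differ between the subunits was not tested, since the genes are not replicates. Sorted by where the protein sits, the large subunit had 15 falls and 3 rises among 50 genes and the small subunit 12 falls and 5 rises among 26, leaving out MRPS36. Without siAHCYL1 replicate 2 or without siNC replicate 2, 8 MRPS genes fell in place of 13.

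The summed message of both subunits was lower by a similar share. MRPL genes summed to 4951, 5208 and 5215 TPM in siAHCYL1 libraries, against 5674, 5691 and 5796 TPM in siNC libraries. MRPS genes summed to 2404, 2454 and 2380 TPM in siAHCYL1 libraries, against 2706, 2695 and 2692 TPM in siNC libraries. Neither sum overlapped between groups: the mean was 10.4% lower for the large subunit (5125 ± 151 TPM in siAHCYL1 and 5720 ± 65.9 TPM in siNC, SD, n = 3 each) and 10.6% lower for the small subunit (2412 ± 38.2 TPM in siAHCYL1 and 2698 ± 7.58 TPM in siNC). The 2 subunits together held 0.754% ± 0.016 of all TPM in siAHCYL1 libraries and 0.842% ± 0.006 in siNC libraries. The ratio of the large to the small subunit, in which a scaling of the library cancels, was 2.06, 2.12 and 2.19 in siAHCYL1 libraries and 2.10, 2.11 and 2.15 in siNC libraries. These overlap, with means of 2.13 ± 0.066 in siAHCYL1 and 2.12 ± 0.029 in siNC.

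**Figure D2:**
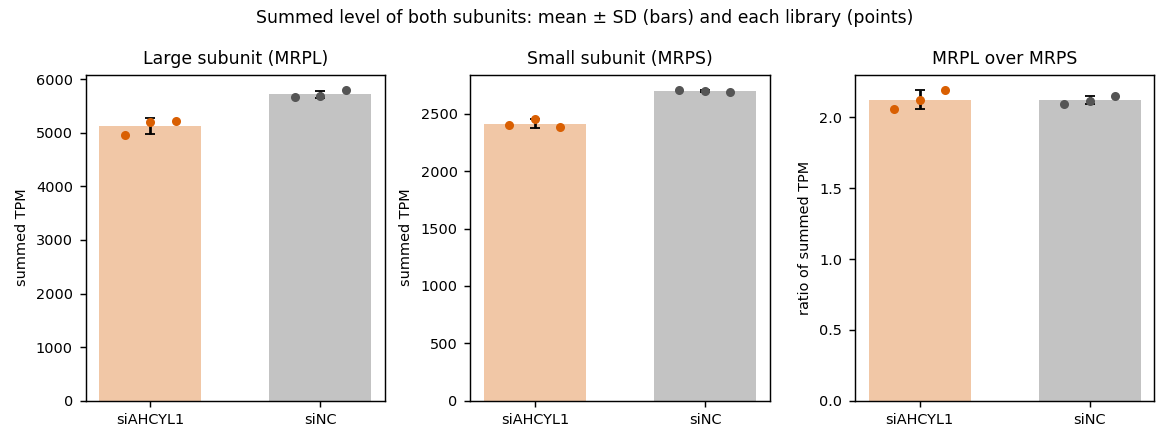
Summed TPM of MRPL genes (left) and MRPS genes (middle) and the ratio of the sums (right), with the mean (bar), SD (whisker) and each library (point) for siAHCYL1 and siNC. All siAHCYL1 points lie below all siNC points in both sums, while the ratios overlap around 2.1.

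MRPL32 had the largest fall of the large subunit. It is made as a precursor that the inner-membrane m-AAA protease trims before the protein joins the ribosome. It lies at chr7:42932376-42937857 and had 145.54, 157.97 and 147.26 TPM in siAHCYL1 libraries, against 251.28, 233.40 and 228.85 TPM in siNC libraries. The groups stood well apart, 36.8% lower after the AHCYL1 siRNA (log2 fold change -0.66, SE 0.064, limma adjusted p = 3.96e-05). MRPS33, a small-subunit protein found only in mitochondria, had the largest rise of any member. At chr7:141002610-141014952 it had 113.22, 126.26 and 111.51 TPM in siAHCYL1 libraries, against 66.58, 64.12 and 65.14 TPM in siNC libraries. Every siAHCYL1 library was far above every siNC library (log2 fold change 0.83, SE 0.070, limma adjusted p = 1.67e-05). MRPS21, a counterpart of bacterial S21 at chr1:150293861-150308979, had 56.17, 66.35 and 53.00 TPM in siAHCYL1 libraries, against 34.15, 34.50 and 36.94 TPM in siNC libraries. It too did not overlap (log2 fold change 0.71, SE 0.093, limma adjusted p = 0.000229). The table has no rows to separate MRPS21 from its 8 named pseudogenes or MRPS33 from its 3, and how reads shared with them were divided is not given in the sources used here. Named pseudogenes exist for 34 members in all, among them MRPS17 and MRPS31 with 4 each and MRPS16 with 3. The division of shared reads is not given for these either.

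Promoters of nuclear genes for mitochondrial proteins are known to carry sites for ETS-family factors such as GABP, for YY1 and for NRF1. RefSeq promoters on GRCh38.p14, 250 bases before to 50 after the start, were at hand for 69 of the 77 genes. The 4 shown are those of the members with the largest rises, of the member with the largest fall, and of MRPL47, which fell while the gene across its promoter rose. Capitals mark matches on either strand to CCGGAAG (ETS), AAGATGGC (YY1) or GCGCA followed by any base and GCGC (NRF1), all read 5′ to 3′ on the strand of the gene.
MRPS33 (chr7:141014903-141015202, minus strand): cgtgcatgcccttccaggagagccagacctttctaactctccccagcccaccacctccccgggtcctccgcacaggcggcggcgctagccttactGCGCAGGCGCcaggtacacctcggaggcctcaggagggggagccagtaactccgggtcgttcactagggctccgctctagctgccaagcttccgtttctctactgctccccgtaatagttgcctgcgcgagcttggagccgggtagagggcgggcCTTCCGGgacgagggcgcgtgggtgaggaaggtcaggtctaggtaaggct
MRPS21 (chr1:150293611-150293910, plus strand): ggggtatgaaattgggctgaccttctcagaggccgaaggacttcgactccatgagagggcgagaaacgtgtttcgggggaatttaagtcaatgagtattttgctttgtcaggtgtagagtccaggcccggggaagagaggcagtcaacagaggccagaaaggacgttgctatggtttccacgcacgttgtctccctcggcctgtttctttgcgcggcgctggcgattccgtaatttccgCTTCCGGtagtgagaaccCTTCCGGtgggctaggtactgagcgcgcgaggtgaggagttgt
MRPL32 (chr7:42932126-42932425, plus strand): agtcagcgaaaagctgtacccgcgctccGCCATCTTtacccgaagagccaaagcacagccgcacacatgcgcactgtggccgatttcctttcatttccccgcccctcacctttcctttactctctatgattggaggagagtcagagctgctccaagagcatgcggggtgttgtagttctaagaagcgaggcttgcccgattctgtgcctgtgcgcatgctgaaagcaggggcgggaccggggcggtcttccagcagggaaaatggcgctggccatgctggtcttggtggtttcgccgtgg
MRPL47 (chr3:179604589-179604888, minus strand): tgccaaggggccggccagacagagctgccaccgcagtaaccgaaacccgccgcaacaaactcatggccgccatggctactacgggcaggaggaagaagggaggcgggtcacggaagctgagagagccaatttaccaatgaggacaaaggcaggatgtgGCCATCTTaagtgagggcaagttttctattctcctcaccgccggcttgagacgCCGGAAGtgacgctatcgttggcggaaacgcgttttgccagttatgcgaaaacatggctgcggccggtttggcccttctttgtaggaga

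Over all members the ETS letters stood in 28 of 69 promoters (40.6%), against 19.4% of the 10534 promoters of tested genes, and the YY1 letters in 20 of 69 (28.99%), against 5.44%. At least one of these motifs was in 58.0% of members and in 23.5% of all promoters; in no member did matches to both share bases. The NRF1 letters were in 11.6% of members and 11.9% of all promoters, and the E-box CACGTG, to which MYC and related factors bind, in 10.1% of members and 10.2% of all promoters. The ETS letters stood in 7 of the 24 members that fell and had a promoter, in 4 of the 8 that rose and in 17 of the 37 that did not pass. The YY1 letters stood in 8 of 24, 1 of 8 and 11 of 37. A match is a stretch of letters only, and no binding was measured.

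Several other large-subunit genes with bacterial counterparts fell, and so did MRPL39, a protein near the exit tunnel that bacteria lack. MRPL21 had 82.67, 108.96 and 99.21 TPM in siAHCYL1 libraries, against 138.28, 134.00 and 147.50 TPM in siNC libraries (log2 fold change -0.53, SE 0.098, limma adjusted p = 0.00165). MRPL3, whose bacterial counterpart reaches towards the peptidyl transferase centre, had 178.10, 144.73 and 154.76 TPM in siAHCYL1 libraries, against 239.13, 223.76 and 211.77 TPM in siNC libraries (log2 fold change -0.50, SE 0.085, limma adjusted p = 0.00106). In both genes the siAHCYL1 libraries all lay below the siNC libraries. MRPL39 had 64.77, 53.47 and 53.10 TPM in siAHCYL1 libraries, against 86.70, 73.97 and 74.76 TPM in siNC libraries (log2 fold change -0.45, limma adjusted p = 0.00402). MRPL36 (-0.43) and MRPL9 (-0.38), counterparts of bacterial L36 and L9, followed. Exons of other genes overlap 38.5% of the exon bases of MRPL9, and these non-directional libraries cannot separate them. The remaining falls among MRPL genes were between -0.38 (MRPL37) and -0.22 (MRPL2), and the call of MRPL2 was lost whichever of the 6 libraries was left out.

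MRPL12 belongs, with MRPL10 and MRPL11, to the stalk that recruits translation factors, and it also binds the mitochondrial RNA polymerase. It had 211.48, 237.61 and 220.96 TPM in siAHCYL1 libraries, against 261.36, 254.98 and 264.57 TPM in siNC libraries. The groups did not overlap and the fall was small (log2 fold change -0.22, SE 0.062, limma adjusted p = 0.0144); another annotated gene overlaps 68.2% of its exon bases. MRPL11 fell as well (-0.29), and MRPL10 had 75.4 ± 0.201 TPM in siAHCYL1 and 71.1 ± 4.98 TPM in siNC and did not pass. Of 6 genes listed here for proteins around the exit tunnel 1 fell and 1 rose (16.7% each), and this list may not be complete. Over all genes tested 21.2% fell and 30.4% rose.

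The 3 large-subunit genes that rose were MRPL24, MRPL52 and MRPL49. MRPL52, found only in mitochondria, had 23.33, 25.39 and 24.74 TPM in siAHCYL1 libraries, against 17.50, 15.12 and 18.95 TPM in siNC libraries (log2 fold change 0.49, SE 0.101, limma adjusted p = 0.00308). MRPL49, likewise without a bacterial counterpart, had 101.97, 86.49 and 92.84 TPM in siAHCYL1 libraries, against 80.46, 74.46 and 69.01 TPM in siNC libraries (log2 fold change 0.32, limma adjusted p = 0.0102). Both stood clear of the siNC libraries, but MRPL49 did not pass once a trend with transcript GC content and length was removed (limma adjusted p = 0.0906). MRPL24, the counterpart of a bacterial protein at the exit tunnel, had 116.28, 170.85 and 168.02 TPM in siAHCYL1 libraries, against 95.13, 92.25 and 127.85 TPM in siNC libraries. The lowest siAHCYL1 library lay below the highest siNC library (log2 fold change 0.52, SE 0.163, limma adjusted p = 0.0238), and MRPL24 passed in 7 of 15 alternative analyses; it was lost without siAHCYL1 replicate 2 or 3 and without siNC replicate 1 or 2 (highest limma adjusted p 0.0905).

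**Figure D3:**
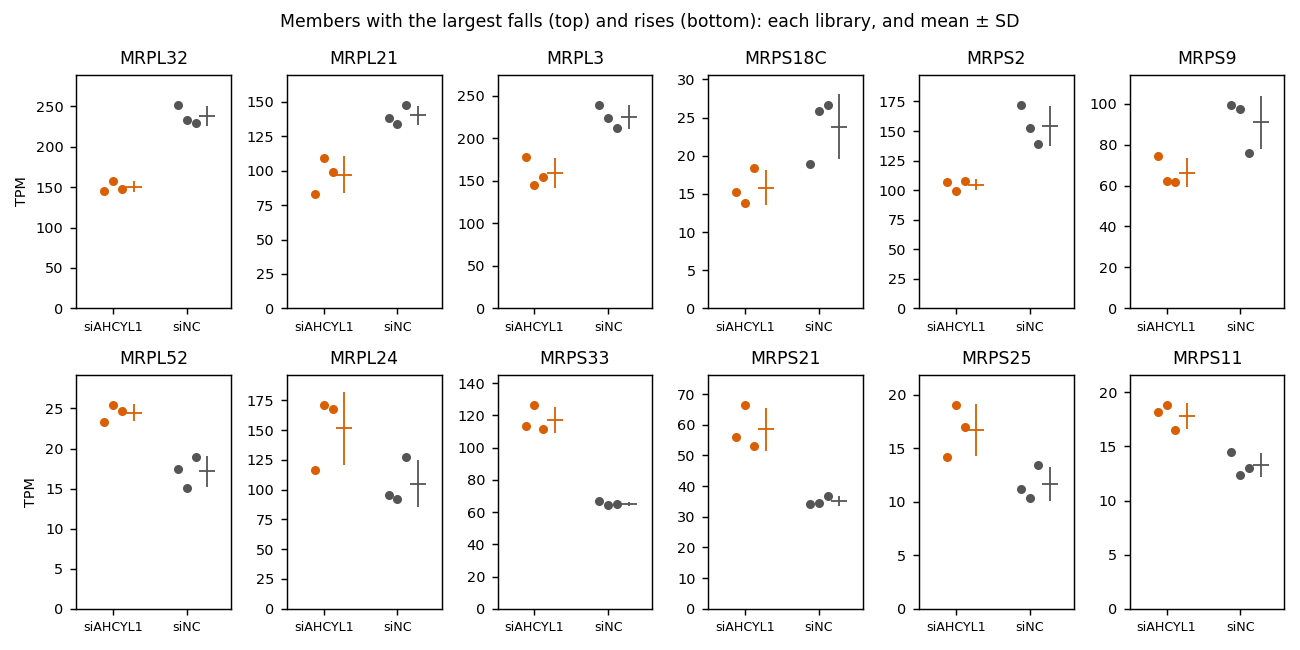
TPM in each library (points) with mean ± SD, siAHCYL1 left of siNC, for 6 members with large falls (top) and 6 with large rises (bottom); each axis starts at 0. The groups are separate in every panel except that of MRPL24, where 116.28 TPM in a siAHCYL1 library lies below 127.85 TPM in a siNC library.

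In the small subunit the falls were led by MRPS18C and MRPS2. MRPS2, the counterpart of bacterial S2, had 107.12, 99.47 and 107.35 TPM in siAHCYL1 libraries, against 171.96, 152.21 and 138.84 TPM in siNC libraries (log2 fold change -0.55, SE 0.084, limma adjusted p = 0.000543). The siAHCYL1 values were close together and all below the siNC values. MRPS9, the counterpart of S9, had 74.29, 62.30 and 61.82 TPM in siAHCYL1 libraries, against 99.26, 97.39 and 75.84 TPM in siNC libraries (log2 fold change -0.45, limma adjusted p = 0.0097). The gap to the lowest siNC library was narrow. MRPS17 (-0.40) and MRPS31 (-0.39) fell by similar amounts, and 27.0% of the exon bases of MRPS17 are shared with other genes. MRPS24 and MRPS15, the most abundant small-subunit messages by the mean over all 6 libraries, at 254 ± 22.9 and 165 ± 2.87 TPM in siAHCYL1 and 315 ± 16.2 and 210 ± 13.8 TPM in siNC, fell by 0.31 and 0.34 on the log2 scale. MRPS30, counted here by its symbol, had 58.72, 46.64 and 46.56 TPM in siAHCYL1 libraries, against 76.21, 64.59 and 57.82 TPM in siNC libraries. Its groups overlapped (log2 fold change -0.38, limma adjusted p = 0.0256), with replicate 1 highest in both, and the call was lost without siAHCYL1 replicate 2 or 3 and without siNC replicate 1 or 2 (highest limma adjusted p 0.0851).

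Human cells have a trio of paralogs of bacterial S18, and their values were unlike. MRPS18C had 15.29, 13.88 and 18.34 TPM in siAHCYL1 libraries, against 18.95, 25.91 and 26.65 TPM in siNC libraries, and fell (log2 fold change -0.55, SE 0.147, limma adjusted p = 0.0111). MRPS18A had 50.61, 49.83 and 47.22 TPM in siAHCYL1 libraries, against 47.37, 67.87 and 61.94 TPM in siNC libraries, and did not pass (log2 fold change -0.24, limma adjusted p = 0.119). MRPS18B had 108.68, 98.51 and 95.82 TPM in siAHCYL1 libraries, against 107.09, 104.72 and 98.56 TPM in siNC libraries, with overlapping groups (log2 fold change -0.04, limma adjusted p = 0.702). MRPS18B was thus the most abundant of the trio on the TPM scale in every library. The exons of MRPS18C share 40.2% of their bases with ABRAXAS1. MRPS36 had 25.8 ± 3.44 TPM in siAHCYL1 and 27.2 ± 3.41 TPM in siNC (log2 fold change -0.07, limma adjusted p = 0.641).

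Besides MRPS33 and MRPS21, the small-subunit rises were MRPS25, MRPS11 and MRPS16. MRPS16, the counterpart of S16, had 95.62, 96.43 and 94.30 TPM in siAHCYL1 libraries, against 76.05, 76.76 and 75.07 TPM in siNC libraries (log2 fold change 0.33, SE 0.059, limma adjusted p = 0.00153). The spread within each group was far smaller than the gap between them. MRPS25 had 14.17, 19.01 and 17.01 TPM in siAHCYL1 libraries, against 11.23, 10.33 and 13.39 TPM in siNC libraries (log2 fold change 0.49, limma adjusted p = 0.0136). MRPS11 had 18.15, 18.79 and 16.48 TPM in siAHCYL1 libraries, against 14.45, 12.34 and 13.03 TPM in siNC libraries (log2 fold change 0.40, limma adjusted p = 0.00891). These were the least abundant MRPS genes by the mean over all 6 libraries, and both lay wholly above siNC. MRPS25 did not pass without siAHCYL1 replicate 2, without siNC replicate 2 or under quantile normalization (highest limma adjusted p 0.0578 over its alternatives), and its exons share 22.2% of their bases with NR2C2.

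By the mean over all 6 libraries MRPL41, whose protein bacteria lack, was the most abundant member and did not pass, with 317.19, 342.14 and 380.72 TPM in siAHCYL1 libraries, against 323.19, 339.24 and 347.12 TPM in siNC libraries (log2 fold change 0.04, limma adjusted p = 0.682). MRPL37 was next by that mean, with 273 ± 8.71 TPM in siAHCYL1 and 355 ± 18.3 TPM in siNC, above MRPL41 in siNC, and fell (-0.38). The least abundant MRPL genes by that mean were MRPL22 and MRPL48. MRPL22, the counterpart of an exit-tunnel protein, had 9.99 ± 0.553 TPM in siAHCYL1 and 11.2 ± 0.347 TPM in siNC, and MRPL48 had 18.8 ± 2.68 TPM in siAHCYL1 and 21.4 ± 2.12 TPM in siNC, and neither passed; MRPS25, MRPS11 and MRPS18C, which passed, were also lower than MRPL48 by that mean. The order of mean levels was nearly the same in both groups (Spearman rho = 0.96 over the 77 genes, which share their libraries). The Pearson r of log2 mean TPM was 0.97. The spread of log2 TPM over members was narrower after the AHCYL1 siRNA, with an SD of 1.13 ± 0.025 in siAHCYL1 and 1.20 ± 0.023 in siNC, lower in 3 of 3 libraries. Across members the log2 fold change had a Pearson r of -0.25 with log2 mean TPM, 0.02 with log2 transcript length and 0.12 with GC content, given as descriptions since genes are not replicates.

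By origin, 19 of 44 members grouped here as having a bacterial counterpart fell (43.2%) and 4 rose (9.09%), with a median log2 fold change of -0.17. Of 29 grouped as found only in mitochondria 8 fell (27.6%) and 4 rose (13.8%), with a median of -0.18. That group holds MRPS18A and MRPS18B, which did not pass, although they are paralogs of bacterial S18. The other 4 members were placed in neither group, and none of them passed. The medians were close although the shares called were not, and the difference was not tested. Of the 34 members with a median transcript length under 1000 bases 10 fell and 4 rose (median -0.17), and of the 43 longer ones 17 fell and 4 rose (median -0.16). A 7-base motif in 3′ UTRs, GTATGCA, was chosen with earlier results of these data known, so its shares are no independent result. It was carried by 1170 genes, of which 36.8% fell and 20.1% rose. Of the 11974 genes searched 22.4% fell and 30.2% rose. Of the 77 members 4 carry it: MRPL50 and MRPS23, which fell, and MRPL22 and MRPS36, which did not pass.

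Some members start close to a gene on the other strand. How often this holds over all genes was not computed. In the GENCODE v29 annotation 17 members have the start of a tested gene on the other strand within 1000 bases, pointing away from the member. Pairs that overlap by more than a short stretch at their starts were not counted. MRPL46 and MRPS11 are each other's neighbour. MRPL32 lies head to head with PSMA2, a subunit of the 20S proteasome, and both fell: PSMA2 had 197.22, 228.03 and 209.17 TPM in siAHCYL1 libraries, against 309.77, 288.64 and 324.47 TPM in siNC libraries (log2 fold change -0.54, limma adjusted p = 0.000267). MRPL47 starts 36 bases from NDUFB5, a subunit of respiratory complex I. MRPL47 fell, with 160.45, 138.46 and 154.83 TPM in siAHCYL1 libraries, against 202.69, 192.43 and 181.40 TPM in siNC libraries (log2 fold change -0.34, limma adjusted p = 0.00394). NDUFB5 rose, with 222.80, 202.01 and 216.65 TPM in siAHCYL1 libraries, against 144.32, 129.61 and 148.08 TPM in siNC libraries (log2 fold change 0.60, limma adjusted p = 0.000124). The pair thus moved apart across one stretch of DNA, and so did MRPL50 (-0.27) and the zinc finger gene ZNF189 (0.32), though ZNF189 was lost without siAHCYL1 replicate 1 and without siNC replicate 1 or 2, and MRPL50 without siAHCYL1 replicate 3 and without siNC replicate 1 or 3. MRPS11 rose (0.40) while MRPL46, 34 bases away, had 41.5 ± 2.32 TPM in siAHCYL1 and 47.9 ± 5.50 TPM in siNC and did not pass. TCP1, a subunit of the cytosolic chaperonin, fell (-0.52) beside MRPL18, which had 126 ± 6.65 TPM in siAHCYL1 and 118 ± 6.27 TPM in siNC. Over the 17 members 2 neighbours fell and 6 rose, where 21.2% of all genes tested fell and 30.4% rose. The log2 fold changes of member and neighbour had a Pearson r of 0.21, given as a description.

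**Figure D4:**
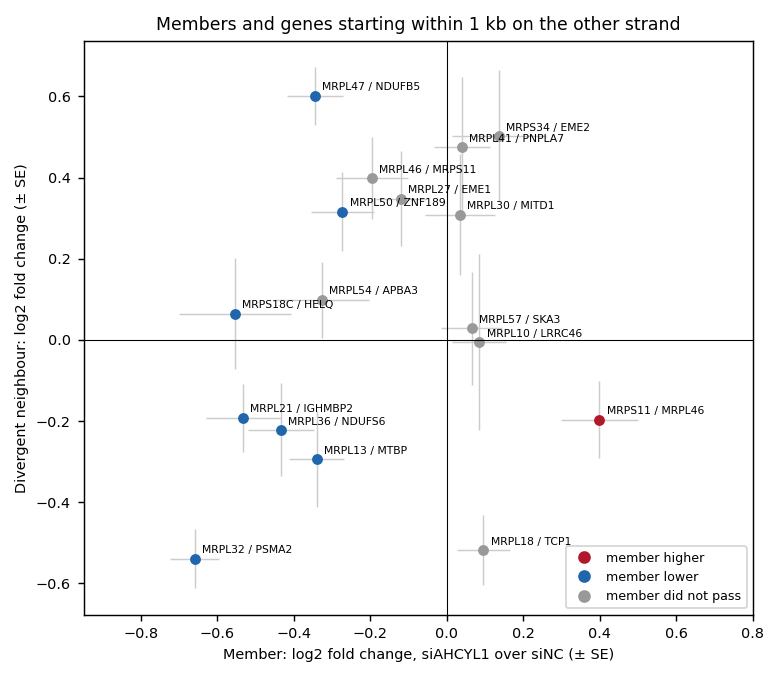
Log2 fold change, siAHCYL1 over siNC, of each member (horizontal) and of the gene that starts on the other strand within 1000 bases (vertical), with standard errors, coloured by the member's call. Pairs with longer overlaps at their starts are left out. MRPL32 with PSMA2 lies at the lower left (-0.66 and -0.54), and MRPL47 with NDUFB5 at the upper left (-0.34 and 0.60).

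Of 7 genes listed with the mitochondrial ribosome under other symbols, 1 fell and 1 rose (14.3% each, median log2 fold change 0.06). Besides mitochondrial ribosomal proteins this list holds OXA1L, which is not one of them and did not pass (log2 fold change 0.06). Of all genes tested 21.2% fell and 30.4% rose. DAP3, a GTP-binding protein of the small subunit, rose (120.58, 111.45 and 108.15 TPM in siAHCYL1 libraries, against 96.73, 90.84 and 95.83 TPM in siNC libraries; 0.26, limma adjusted p = 0.00974). GADD45GIP1, of the large subunit, fell by 0.21 on the log2 scale (limma adjusted p = 0.0409), and that call was lost without siNC replicate 1, 2 or 3 and without siAHCYL1 replicate 1 or 2.

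Of 25 tested genes for assembly of the ribosome and modification of its RNA, 3 fell and 6 rose (median 0.06). Both shares lay below the 21.2% lower and 30.4% higher of all genes tested, and the balance turned with scaling, to 6 falls and 5 rises under median-of-ratios scaling and 7 falls and 4 rises under quantile normalization. YBEY, an endoribonuclease, had 19.07, 22.04 and 23.34 TPM in siAHCYL1 libraries, against 6.90, 8.44 and 6.80 TPM in siNC libraries (log2 fold change 1.43, SE 0.120, limma adjusted p = 1.73e-05), a larger difference than that of any member. RCC1L, also an assembly factor, had 99.11, 92.23 and 105.08 TPM in siAHCYL1 libraries, against 54.23, 44.63 and 47.76 TPM in siNC libraries (log2 fold change 1.00, limma adjusted p = 2.11e-05). NGRN, which is needed for the stability of the large ribosomal RNA, rose (0.49). DHX30, an RNA helicase, had 82.25, 77.84 and 82.68 TPM in siAHCYL1 libraries, against 118.23, 115.46 and 107.83 TPM in siNC libraries, and fell (-0.49, limma adjusted p = 0.000264). Without siNC replicate 3, 3 assembly genes rose in place of 6.

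Of 14 factors of mitochondrial translation and its quality control, 2 fell (14.3%) and 5 rose (35.7%), with a median of 0.17. Of all genes tested 21.2% fell and 30.4% rose. The initiation factors MTIF3 (0.68, limma adjusted p = 0.016) and MTIF2 (0.34, limma adjusted p = 0.014) rose, as did C6orf203, now MTRES1 (0.81). The release factor MTRF1L fell (-0.37, limma adjusted p = 0.00276), and TUFM, the elongation factor that brings aminoacyl-tRNA, fell by 0.18 (limma adjusted p = 0.0372). TUFM did not pass without siAHCYL1 replicate 2 or 3 or without siNC replicate 1 or 2, MTIF3 without siAHCYL1 replicate 1, or MTIF2 without siNC replicate 2. Between 2 and 6 of these factors rose over the alternatives, with 2 without siAHCYL1 replicate 1 and 3 without siAHCYL1 replicate 2, siNC replicate 2 or siNC replicate 3.

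Of 19 genes for replication and expression of the mitochondrial genome, 6 fell (31.6%) and 0 rose in limma (median -0.19). Of all genes tested 21.2% fell and 30.4% rose. For the 19 genes the counts at an unadjusted p under 0.05 in limma were 7 and 0, and 1 rose under the replicate block and without siNC replicate 3. Falls numbered 10 under quantile normalization and 9 under median-of-ratios scaling, under the replicate block or without siAHCYL1 replicate 1. C10orf2, now TWNK, the helicase of mitochondrial DNA replication, had 16.17, 13.82 and 16.63 TPM in siAHCYL1 libraries, against 24.14, 21.56 and 23.76 TPM in siNC libraries (log2 fold change -0.55, limma adjusted p = 0.00163). PNPT1, the polynucleotide phosphorylase of the RNA degradation machinery, fell by 0.52 (limma adjusted p = 0.00271). TFAM, which packages the mitochondrial genome and starts its transcription, fell by 0.36, and POLRMT, the RNA polymerase, by 0.28. HSD17B10, a subunit of mitochondrial RNase P, and SSBP1, the single-strand DNA binding protein, each fell by 0.28, the call of SSBP1 being lost without siAHCYL1 replicate 3. The transcripts of the mitochondrial genome itself were not analysed here.

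Of 12 nuclear regulators of such genes 3 fell and 3 rose (median -0.02), near the shares of all genes tested. In place of 3, 1 rose under median-of-ratios scaling, quantile normalization, no filter or robust moderation, and of the 12 genes 2 passed without siAHCYL1 replicate 2 and 3 without siAHCYL1 replicate 3 or siNC replicate 2. PPARGC1A, the coactivator PGC-1alpha, had 21.64, 17.18 and 16.77 TPM in siAHCYL1 libraries, against 11.88, 10.98 and 10.39 TPM in siNC libraries, and rose (log2 fold change 0.69, limma adjusted p = 0.00115). PPARGC1B, its relative, was low and fell (0.74 ± 0.08 TPM in siAHCYL1 and 1.72 ± 0.22 TPM in siNC). The cofactor HCFC1 fell by 0.27, and MYCN, also low, fell by 0.57. Both calls were lost without siAHCYL1 replicate 2, that of HCFC1 also without siAHCYL1 replicate 3, and that of MYCN also without siAHCYL1 replicate 1 and siNC replicate 2 or 3. GABPA, the DNA-binding subunit of GABP, had 17.1 ± 2.29 TPM in siAHCYL1 and 17.1 ± 0.959 TPM in siNC, and YY1 had 87.9 ± 9.63 TPM in siAHCYL1 and 93.5 ± 6.49 TPM in siNC. Neither passed, nor did NRF1 or MYC; under quantile normalization YY1 did (log2 fold change -0.20, limma adjusted p = 0.0479).

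Among cytosolic ribosomal proteins 56 of 77 tested fell (72.7%) and 0 rose in limma, with a median of -0.32; at an unadjusted p under 0.05 these were 58 and 1, and under quantile normalization 33 fell and 5 rose. They held 14.2% ± 0.31 of all TPM in siAHCYL1 libraries and 18.1% ± 0.322 in siNC libraries, 21.4% less, whereas the mitochondrial ones held 10.5% less. RPL12 (-0.66), RPL29 (-0.60) and RPL18 (-0.59), all of the cytosolic large subunit, were among those with the smallest adjusted p.

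**Figure D5:**
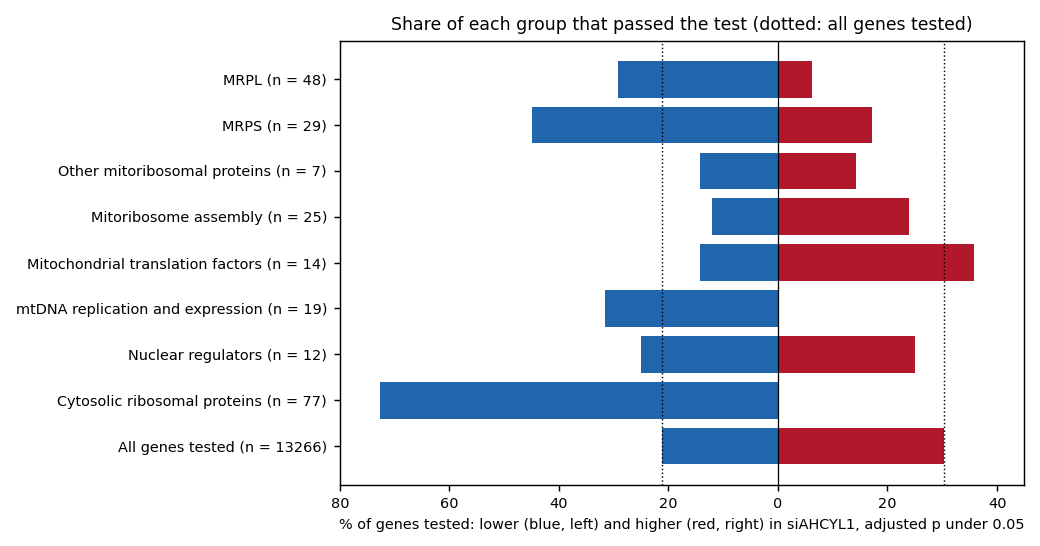
Percentage of tested genes that fell (blue, left) and rose (red, right) after the AHCYL1 siRNA, for the MRPL and MRPS genes, for related lists and for all genes tested, whose 21.2% and 30.4% are the dotted lines. MRPS genes reach 44.8% on the left, beyond the line, and cytosolic ribosomal protein genes 72.7%.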

How the data were processed

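RNA of 6 HMCB libraries was measured in 1 table of TPM that the authors deposited. STAR, RSEM and GRCh38 were used per the submitters' processing notes, with versions and gene annotation not given in the sources used here. TPM keeps no depth, so counting error and detection limits could not be given. Table columns with the prefix nc were read as siNC, and those with the prefix si as siAHCYL1 because only 1 other group exists.

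Genes that reached 1 TPM in 3 or more of the 6 libraries were tested on log2(TPM + 1) with limma 3.58.1 in R 4.3.3 (two-sided moderated test, variance trend over mean level, Benjamini-Hochberg over all genes, threshold 0.05). Fold changes on this scale understate those of low genes. The same steps were tested on simulated data. Transcript lengths, exon overlaps and gene starts are from GENCODE v29 on GRCh38, with overlaps counted on either strand, and coordinates from RefSeq on GRCh38.p14. Motifs were searched on both strands.

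The members and lists were chosen with earlier results of these data known. Genes were named by a rule: the 6 largest changes of each sign per subunit, the 2 most and least abundant members of each, MRPS18A, MRPS18B, MRPS18C, MRPS30, MRPS36 and MRPL12, and up to 4 changed genes per companion list by smallest adjusted p. It also took AHCYL1 and, per companion list, the changed gene that went most against the direction of the list median. Some genes that the rule takes are left out. PSMA2, NDUFB5, TCP1, ZNF189, MRPL46, MRPL10, MRPL11, MRPL47, MRPL50, MRPL2, MRPS14, MRPS22, MRPS23, MRPS27, OXA1L, TFAM, TUFM, SSBP1, GABPA, YY1, NRF1 and MYC are named outside it, chosen after their values were seen. Alternatives were quantile normalization, median-of-ratios scaling, a pseudocount of 0.1, filtering at 5 TPM or not at all, robust moderation without a trend, removal of the length and GC trend, the replicate number as a block, subunits by structure, and leaving out each library or replicate 1 of both groups.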

Additional observations from a re-analysis of the deposited data

How the results depend on the processing

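Of the 27 falls, 20 passed in all 15 alternatives, and of the 8 rises 5 did. The others were MRPL2, MRPL50, MRPS14, MRPS22, MRPS23, MRPS27 and MRPS30 among the falls and MRPL24, MRPL49 and MRPS25 among the rises. MRPS14, MRPS22 and MRPS27 were each lost without siAHCYL1 replicate 2 or 3 or siNC replicate 1 or 2, and MRPS23 without siAHCYL1 replicate 1 or 2 or siNC replicate 2 or 3. No called member changed direction in these alternatives. Of the 42 members that did not pass, 21 passed in no alternative. Changed MRPL genes numbered 17, against 26 under quantile normalization and 26 with the replicate number as a block. Fallen MRPL genes numbered 14, against 24 under quantile normalization, and risen ones 3, against 6 with the block. Fallen MRPS genes numbered 13 and between 8 and 12 with a single library left out (8 without siAHCYL1 replicate 2 or siNC replicate 2). Risen companion genes numbered 15, against 9 without a filter and between 9 and 15 with a single library left out (9 without siNC replicate 2). The MRPL median log2 fold change was -0.14, against -0.18 with the length and GC trend removed, -0.22 under quantile normalization and -0.20 under median-of-ratios scaling, and between -0.15 and -0.10 with libraries left out. The MRPS median was -0.21, against -0.32 under quantile normalization and -0.28 under median-of-ratios scaling, and between -0.22 and -0.18 with libraries left out. In an alternative chosen after seeing the data, median-of-ratios scaling gave for the summed TPM of MRPL, percent change, -14.5 against -10.4, and for the summed TPM of MRPS, percent change, -14.7 against -10.6. For these shifts the cause was not tested. The replicate numbers are not known to pair samples: deviations of same-numbered libraries had correlations of 0.233, 0.001 and 0.154, so the block is given as a value only, with 7919 genes changed after AHCYL1 siRNA in place of 6844. Depth is unknown, so its limits could not be set.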
